A study of Mus musculus with 151 samples.

Results

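Rmrp, Rpph1 and Rn7sk are 3 noncoding RNAs made by RNA polymerase III, and their counts were followed here in 143 RNA-seq libraries of female mice conceived naturally (Natural) or by IVF. They are 3 of the 35976 genes counted in all 7 tables, and they were chosen by their fall in IVF ovaries at E18.5, that is, by their CPM (counts per 1000000 counts of a library) in that comparison. Their E18.5 values are therefore given as a description, without a test, and the tests concern the other ages and cell types.

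Natural offspring came from CF-1 females mated with B6/SJL males and developed without embryo transfer. IVF offspring came from superovulated CF-1 eggs fertilized in vitro with B6/SJL sperm, cultured to the blastocyst stage and transferred to pseudopregnant females. Pups of the adult cohorts were delivered by c-section and raised by CF-1 foster dams in both groups. Both groups therefore had the same mixed background and no engineered allele, and IVF stands for hormone treatment, fertilization, culture and transfer together. Whole ovaries were sequenced at E18.5 (4 Natural, 6 IVF), at 12 weeks (4 and 5) and at 39 weeks (5 and 5). Pools of primordial germ cells (PGCs) at E13.5 (4 and 5), single oocytes at 12 weeks (36 and 40) and at 39 weeks (9 and 10), and cumulus cells at 12 weeks (5 and 5) were also sequenced. The study's methods give E18.5 for Natural and E19.5 for IVF collections in one place and E18.5 for both in another, so gestational age and conception cannot be told apart at that stage. Oocytes and cumulus cells came from superovulated females in both groups, and 39-week cumulus cells were not analysed here.

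Rmrp is the RNA of RNase MRP, the nucleolar particle that cuts precursor ribosomal RNA, and Rpph1 is the RNA of RNase P, which trims the 5′ ends of precursor tRNAs. Both particles share most of their proteins. Rn7sk is the 7SK RNA, which with Larp7, Mepce and the Hexim proteins holds the kinase P-TEFb (Cdk9 with cyclin T) inactive and so limits transcription elongation by RNA polymerase II. All 3 are transcribed from promoters lying upstream of the gene and end without a poly(A) tail. In a library made from poly(A) RNA, such as the mRNA kit used for the ovaries makes, their counts describe RNA that passed the selection rather than the whole amount in the cell.

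The RNAs are shown because runs of A, to which oligo(dT) pairs in such a selection, are short in all 3. Capitals mark each run of at least 3 A. The sequences were read 5′ to 3′ from the GENCODE M21 transcripts (GRCm38, the assembly also called mm10), written as DNA, and Bc1, another RNA of polymerase III, stands beside them for contrast.
Rmrp, bases 1 to 281 of 281, chr4:43492783-43493063, minus strand: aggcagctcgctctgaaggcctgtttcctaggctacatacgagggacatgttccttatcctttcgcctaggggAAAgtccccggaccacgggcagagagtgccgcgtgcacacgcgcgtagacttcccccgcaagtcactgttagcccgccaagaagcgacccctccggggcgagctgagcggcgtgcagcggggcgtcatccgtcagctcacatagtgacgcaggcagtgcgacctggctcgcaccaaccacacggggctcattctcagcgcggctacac
Rpph1, bases 1 to 300 of 319, chr14:50807449-50807767, minus strand: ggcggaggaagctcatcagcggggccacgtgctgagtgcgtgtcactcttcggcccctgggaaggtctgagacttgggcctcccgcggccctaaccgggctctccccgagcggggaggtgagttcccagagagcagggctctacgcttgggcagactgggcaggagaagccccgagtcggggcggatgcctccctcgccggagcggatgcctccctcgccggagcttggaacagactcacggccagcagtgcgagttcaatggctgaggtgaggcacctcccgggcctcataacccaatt
Rn7sk, bases 32 to 331 of 331, chr9:78175303-78175633, minus strand: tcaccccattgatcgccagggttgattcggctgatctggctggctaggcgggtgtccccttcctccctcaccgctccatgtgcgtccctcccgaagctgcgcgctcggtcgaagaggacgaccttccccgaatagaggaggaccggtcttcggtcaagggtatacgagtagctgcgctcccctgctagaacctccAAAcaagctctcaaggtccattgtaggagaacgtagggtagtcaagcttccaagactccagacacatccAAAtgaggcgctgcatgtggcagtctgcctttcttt
Bc1, bases 1 to 168 of 168, chr7:144914470-144914637, plus strand: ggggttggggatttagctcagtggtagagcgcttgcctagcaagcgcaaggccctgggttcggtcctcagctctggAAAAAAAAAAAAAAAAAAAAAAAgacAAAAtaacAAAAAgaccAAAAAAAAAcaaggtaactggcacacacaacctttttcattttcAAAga
The longest run of A was 3 bases in Rmrp, 2 in Rpph1 and 3 in Rn7sk, against 23 in Bc1. A made up 19.6% of Rmrp, 16.9% of Rpph1 and 19.6% of Rn7sk, against 41.7% of Bc1. Rny1 and Rny3 (Y RNAs, bound by the Ro60 protein) and Vaultrc5 (the RNA of the vault particle) had longest runs of 2 A each.

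The members lie on 3 chromosomes and each is annotated as a short gene on the minus strand. Whether their reads are shared with related sequences elsewhere was not tested. In the RefSeq annotation of the same assembly, Rmrp was 275 bases long and lay 280 bases from Ccdc107, Rpph1 was 325 bases long and lay 125 bases from Parp2 (a poly(ADP-ribose) polymerase), and Rn7sk was 332 bases long and lay 280 bases from the noncoding gene C920006O11Rik. One GENCODE transcript of Ccdc107 runs antisense into Rmrp, sharing 100 of the 257 words of 25 bases in the Rmrp RNA. Whether the counting used strand is not given in the sources used here, so reads of that transcript and of Rmrp may not be told apart. Of the 6 nearest neighbours, 5 were tested and none passed at any age: Ccdc107 stood at 28.9 ± 11.5 CPM (SD, n = 4) in Natural and 24.1 ± 6.09 CPM (n = 6) in IVF ovaries at E18.5, and Parp2 at 42.2 ± 6.24 and 42.1 ± 4.13 CPM.

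Total counts ran from 6995713 to 43363799 in 28 of the 29 ovary libraries, and the remaining library, 12-week IVF ovary 4, held 2839022. PGC libraries held 4364495 to 8675189 counts and cumulus libraries 2532824 to 6345249, while single oocytes held 839781 to 31126357. Defining genes of the isolated cells were present: 6 PGC genes summed to 3795 CPM or more in every PGC library, 6 granulosa genes to 910 CPM or more in every cumulus library, and 7 oocyte genes to 515.1 CPM or more in every oocyte library of 12 weeks and 4798 CPM or more in every one of 39 weeks. Of the 155 member values above 0, 144 were even numbers. The cause was not tested, and intervals that take each count as an independent molecule may be too narrow.

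At E18.5, all 3 RNAs were lower in every IVF ovary than in every Natural ovary, and 1 Natural ovary stood far above all others. Of the 16415 tested genes, 3.05% had every IVF ovary below every Natural ovary, but the members were selected on this contrast, so that share only describes how common the pattern was. Rmrp was at 5.68, 3.93, 174.5 and 2.70 CPM in Natural ovaries 1 to 4, and at 0, 0.198, 1.42, 0.498, 0.286 and 0.219 CPM in IVF ovaries 1 to 6. These are 40 to 1896 counts in Natural and 0 to 17 counts in IVF libraries. Natural ovary 3 was 30.7-fold above the next highest ovary.

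Rpph1 followed the same order of groups. It was at 2.11, 1.87, 89.2 and 1.89 CPM in Natural and at 0.342, 0, 0.833, 0.796, 0 and 0 CPM in IVF ovaries. The other 3 Natural ovaries lay close together, and Natural ovary 3 was 42.3-fold above the next.

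Rn7sk was the most abundant of the 3 and reached 70.0, 9.35, 185.1 and 11.2 CPM in Natural ovaries. In IVF ovaries it was at 1.88, 2.57, 3.17, 6.37, 6.29 and 2.62 CPM. Here 2 Natural ovaries, 1 and 3, were apart from the other pair, and the gap between the lowest Natural and the highest IVF ovary was the narrowest of the 3 RNAs in fold terms.

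The median of the Natural ovaries was 19.0-fold that of the IVF ovaries for Rmrp, 11.7-fold for Rpph1 and 14.0-fold for Rn7sk. In the edgeR fit over 16415 genes, the log2 fold change of IVF over Natural was -6.74 ± 1.29 (SE) for Rmrp, -6.12 ± 1.29 for Rpph1 and -4.29 ± 0.75 for Rn7sk. Without Natural ovary 3, the same values were -3.17 ± 0.69, -2.46 ± 0.79 and -3.05 ± 0.59. That library therefore set much of the fitted change of Rmrp and Rpph1 but not the side on which the groups lay. In this comparison 5.43% of tested genes, 891 in all, passed an adjusted p of 0.05 in either direction, and 2.75% of tested genes passed and were lower in IVF. The number of genes that passed depended on single ovaries: leaving out 1 ovary moved it to between 313 (without Natural ovary 2) and 1973 (without Natural ovary 1), and by over 1.5 times in 9 of 10 such fits.

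**Figure D1:**
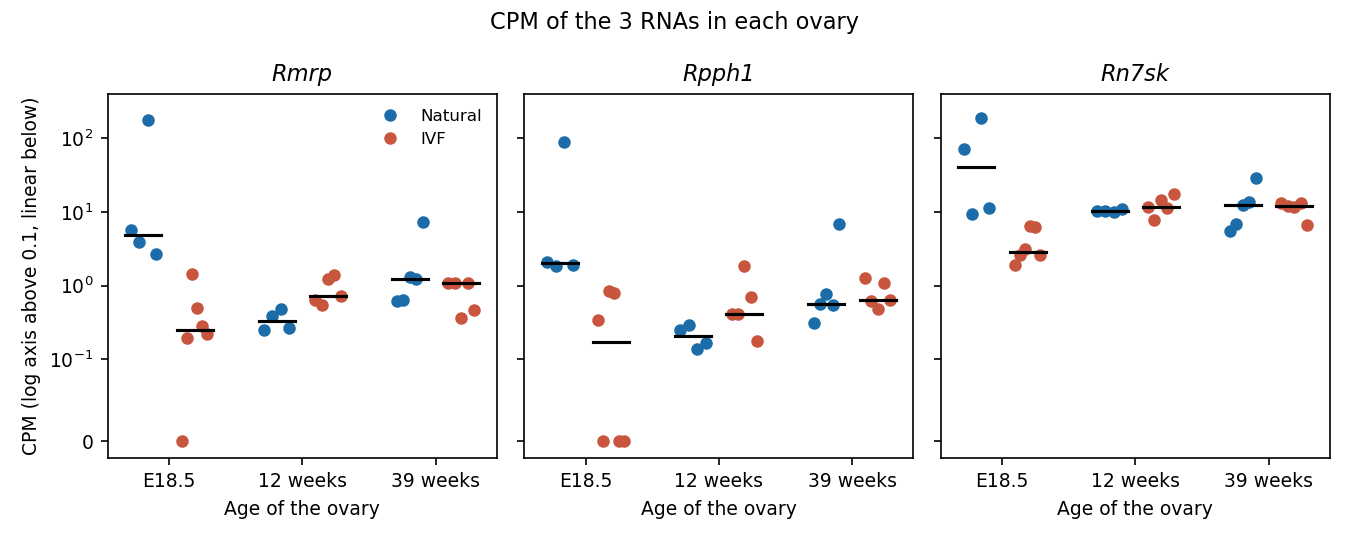
CPM of Rmrp, Rpph1 and Rn7sk in each ovary (points) with the median of each group (lines), by age and conception, on an axis that is logarithmic above 0.1 and linear below. At E18.5 the 6 IVF ovaries lie below the 4 Natural ovaries in each panel, at 12 weeks the Rmrp points of IVF lie above those of Natural, and at 39 weeks Natural ovary 5 is the highest point of each panel.

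**Figure D2:**
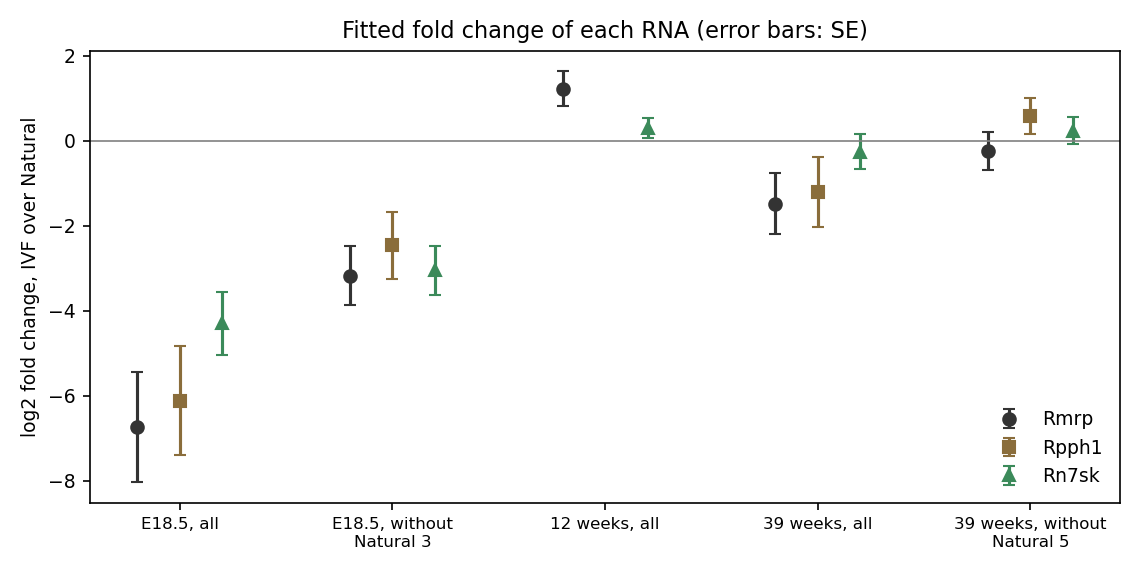
Fitted log2 fold change of IVF over Natural for each RNA, with its SE, in all ovaries of an age and without the ovary that stood highest. Rpph1 at 12 weeks was below the filter on low counts and has no point. The values at E18.5 shrink toward 0 without Natural ovary 3 but stay negative, and those of Rpph1 and Rn7sk at 39 weeks change sign without Natural ovary 5.

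The 3 RNAs rose and fell together between fetal ovaries, which is given as a description because the rule used these values. Over the 10 ovaries, Pearson's r of log2 CPM was 0.95 between Rmrp and Rpph1, 0.92 between Rmrp and Rn7sk and 0.86 between Rpph1 and Rn7sk. Without Natural ovary 3 the values were 0.84, 0.82 and 0.67. Within the 6 IVF ovaries, where Rmrp reached at most 17 counts and Rpph1 at most 10, they were 0.51, 0.44 and 0.15.

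Of 16412 other genes in the E18.5 fit, the 3 most like the members by mean Pearson's r over the 10 ovaries were Lars2 (mitochondrial leucyl-tRNA synthetase, mean r 0.95), the annotated microRNA gene Mir6236 (0.94) and the noncoding gene Gm15564 (0.94). Lars2 was at 1648, 480.3, 7912 and 328.6 CPM in Natural ovaries 1 to 4 and between 100.3 and 235.9 CPM in the 6 IVF ovaries. As for Rmrp, Natural ovary 3 was highest, followed by ovaries 1, 2 and 4. Mir6236 was at 63.9, 30.1, 355.9 and 19.8 CPM in Natural ovaries and at 3.08 to 20.9 CPM in IVF ovaries, and Gm15564 at 21.3, 7.30, 111.4 and 8.16 CPM against 1.54 to 6.83 CPM. Transcripts of Lars2 and Gm15564 share a stretch of 52 identical bases, so their reads may be split between them and both counts are uncertain. The next 5 were the protein-coding genes Crip2, Tspan15, Fam129b, Aprt and Gprc5a, with mean r from 0.93 to 0.91. They varied far less: Crip2 lay between 79.2 and 111.1 CPM in Natural and between 50.7 and 66.4 CPM in IVF ovaries.

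The same library also held the most of 2 other short RNAs of polymerase III. Rny3 was at 3.87 CPM in Natural ovary 3, at most 0.674 CPM in the other Natural ovaries and at most 0.199 CPM in IVF ovaries. Vaultrc5 was at 1.47 CPM there and at most 0.198 CPM elsewhere, while Rny1 was at 0 there and at most 0.281 CPM elsewhere. Core and linker histone mRNAs, most of which also end without a poly(A) tail, summed over 67 genes to 290.5 CPM in Natural ovary 3, to 86.0 to 94.7 CPM in the other Natural ovaries and to 43.7 to 91.9 CPM in IVF ovaries.

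Bc1 behaved differently. This neuronal polymerase III RNA is related to a family of repeats, so reads may be shared with other copies and its level is uncertain. It was at 666.3, 939.6, 917.6 and 854.2 CPM in Natural ovaries and at 287.3, 176.9, 366.5, 340.0, 283.3 and 343.9 CPM in IVF ovaries. No Natural ovary stood apart, and the highest IVF ovary was below the lowest Natural one. Its log2 fold change was -1.54 ± 0.18 (SE, edgeR adjusted p = 0.00553), and it passed in each of the 10 fits that left out 1 ovary. It was the single tested gene of 34 other polymerase III RNAs in the tables, since the others, among them the 7SL, Y, vault and 5S RNAs, were below the filter on low counts.

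**Figure D3:**
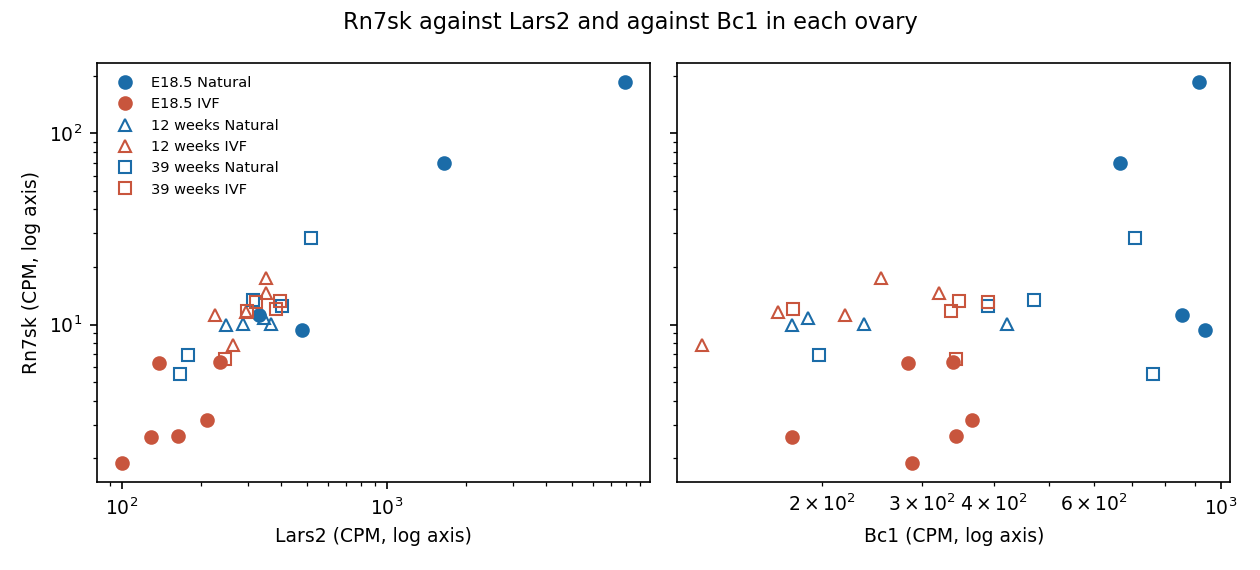
Rn7sk CPM (vertical, log axis) against Lars2 CPM (left) and Bc1 CPM (right) in each of the 29 ovaries, with filled circles for E18.5, triangles for 12 weeks and squares for 39 weeks. Rn7sk and Lars2 were both highest in E18.5 Natural ovary 3, at 185.1 and 7912 CPM, whereas Bc1 was similar in the 4 E18.5 Natural ovaries, from 666.3 to 939.6 CPM.

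At E18.5, calls among the proteins that these RNAs work with are set beside the 5.43% of all tested genes that passed. Every IVF ovary was below every Natural ovary for 3 of 11 RNase P and MRP proteins and 2 of 18 polymerase III subunits, and above for none. Of 7 proteins of 7SK and P-TEFb, 1 was below in this way and 2 were above. Of 20 polymerase III factors, 1 was below and 1 above. Over all 16415 tested genes, 3.05% were below and 858 genes were above. Of 11 proteins of RNase P and RNase MRP, 1 passed the test and fell: Rpp21, from 29.4 ± 12.4 CPM (SD, n = 4) in Natural to 17.0 ± 0.759 CPM (n = 6) in IVF ovaries, with a log2 fold change of -0.82 ± 0.20 (edgeR adjusted p = 0.034). The median log2 fold change of the 11 was -0.34, against 0.00 over all tested genes, and 10 of them were below 0. Rpp21 passed in 3 of the 10 fits that left out 1 ovary.

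Of 7 proteins of the 7SK particle and P-TEFb, 1 fell. Hexim2, an inhibitor of P-TEFb that needs 7SK RNA, went from 9.87 ± 1.14 CPM to 4.72 ± 0.829 CPM, with a log2 fold change of -1.09 ± 0.20 (adjusted p = 0.0138), and it passed in all 10 such fits. Hexim1, the other inhibitor, was at -0.07 ± 0.12 (adjusted p = 0.762), and Larp7, which stabilizes 7SK RNA, at -0.28 ± 0.21 (adjusted p = 0.450). The cyclins Ccnt1 and Ccnt2 were at 0.38 ± 0.13 and 0.46 ± 0.13 (adjusted p = 0.0993 and 0.0569). The median of the 7 was -0.07.

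Of 18 subunits of RNA polymerase III, 1 fell, Polr1d, a subunit shared with RNA polymerase I, at -0.51 ± 0.14 (adjusted p = 0.0488). Of 20 factors of polymerase III transcription, Gtf3c1 of TFIIIC rose by 0.35 ± 0.09 (adjusted p = 0.0351) and Snapc5 of the complex that reads the promoters of genes such as these 3 fell by 0.92 ± 0.25 (adjusted p = 0.045). The medians were -0.23 and 0.11. Polr1d passed in 1, Gtf3c1 in 3 and Snapc5 in 2 of the 10 fits that left out 1 ovary.

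Among RNAs listed for comparison, 4 of 22 tested histone genes fell and none rose, and 21 of the 22 were below 0, with a median of -1.15. Over all tested genes, 5.43% passed in either direction and 2.75% passed and were lower in IVF. Hist1h4h was lowest, at -3.50 ± 0.80 (adjusted p = 0.0264), and Hist1h2al was at -2.97 ± 0.78 (adjusted p = 0.0432). Without Natural ovary 3, these were -2.25 and -2.60, and neither passed (adjusted p = 0.0942 and 0.0986). Of 33 small nucleolar RNAs, Snord2 rose, with a log2 fold change of 1.64 ± 0.43 (adjusted p = 0.0434). It passed in 2 of the 10 fits that left out 1 ovary. None of 5 nuclear long noncoding RNAs or 7 mitochondrial mRNAs passed.

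Other signals moved with the groups or with single libraries at E18.5, and their part in the members' values was not tested. Erythroid genes, 10 in all, summed to 589.3 to 1599 CPM in Natural and to 1662 to 4655 CPM in IVF ovaries, without overlap. Of the 7 tested, 3 rose, beside 5.43% of all tested genes that passed in either direction. Alas2 (the erythroid heme synthesis enzyme) was at 1.87 ± 0.33 (edgeR adjusted p = 0.0129). For 3 of the 10, every IVF ovary was above every Natural ovary, which held for 858 of the 16415 tested genes. Of the 10, 3 were at 0 in at least 1 ovary. Natural ovary 1, which was high for Rn7sk, was lowest of the 10 ovaries for small nucleolar RNAs (26.9 CPM, against 69.0 to 119.5 CPM) and for nuclear long noncoding RNAs (685.7 CPM, against 2859 to 4978 CPM). Oocyte genes summed to 192.1 CPM in Natural ovary 3, the lowest of the Natural ovaries, which reached 893.3 CPM, and to 82.8 to 359.2 CPM in IVF ovaries. In whole ovaries, fewer cells of a type and less RNA per cell cannot be told apart.

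Of the cell type markers tested at E18.5, 7 genes passed, which are set beside the 5.43% of all tested genes that passed. Their part in the members' values was not tested either. Of 5 steroidogenic genes of theca and luteal cells, 3 rose and were above every Natural ovary in every IVF ovary: Lhcgr (the receptor of luteinizing hormone) at 2.33 ± 0.51 (log2, SE, edgeR adjusted p = 0.0241), Cyp17a1 (an enzyme of androgen synthesis) at 1.28 ± 0.34 (adjusted p = 0.045) and Star (which brings cholesterol into mitochondria) at 0.72 ± 0.19 (adjusted p = 0.042). The other steroidogenic genes, Cyp11a1 and Hsd3b1, were at 0.03 and -0.34 and did not pass. Over all 16415 tested genes, 858 were above every Natural ovary in every IVF ovary. The 5 steroidogenic genes summed to 17.6 to 48.2 CPM in Natural and to 29.5 to 43.6 CPM in IVF ovaries, and none was at 0 in any ovary. Of 7 oocyte genes, 2 fell, with Natural ovary 3 inside the IVF range: Gdf9 (a growth factor of the oocyte) at -2.14 ± 0.48 (adjusted p = 0.0256), and Zp3 (a protein of the zona pellucida) at -3.14 ± 0.81 (adjusted p = 0.0399). Gdf9 was at 17.4, 28.6, 7.00 and 57.0 CPM in Natural ovaries and at 2.08 to 10.6 CPM in IVF ovaries, so the groups overlapped. Of the 7 oocyte genes, 1 was at 0 in at least 1 ovary. Those not named above were Zp2, Dppa3, Figla and Nobox, at -1.81, -1.59, -0.58 and -0.50, and Ddx4, at 0.28, and none of these passed. Of 6 PGC genes, Pou5f1 and Dppa5a, both of pluripotent and germ cells, fell, at -2.32 ± 0.53 and -1.95 ± 0.50 (adjusted p = 0.0264 and 0.0411). Of the others, Dppa3 was at -1.59, and Dazl, Nanos3 and Ddx4 were at 0.65, 0.61 and 0.28. None of these passed, so the list was split in direction. The 6 summed to 129.4 to 550.6 CPM in Natural and to 116.2 to 291.2 CPM in IVF ovaries, and none was at 0 in any ovary. Of the 10 fits that left out 1 ovary, Lhcgr and Gdf9 passed in 6 each, Pou5f1 in 5, Zp3 in 4, Dppa5a in 3, Cyp17a1 in 2 and Star in 1. None of 5 granulosa, 5 oviduct and 5 cumulus markers tested passed at E18.5, and no marker of any list passed in ovaries of 12 or 39 weeks.

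**Figure D4:**
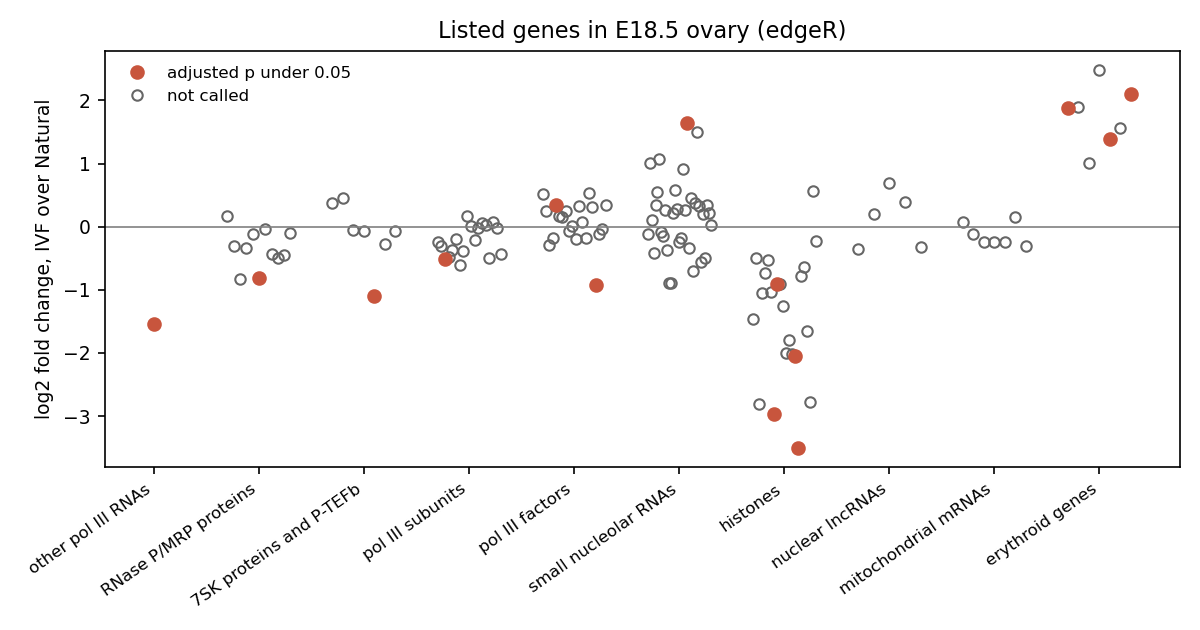
Log2 fold change of IVF over Natural at E18.5 for each tested gene of the lists (points, spread sideways within a list), with filled points for an adjusted p under 0.05. Proteins of the 2 RNase particles, of 7SK and of polymerase III lie mostly between -1 and 1, Bc1 is at -1.54, and 21 of 22 histone genes are below 0.

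At 12 weeks, the order of the groups was turned for Rmrp. Rmrp was at 0.249, 0.393, 0.481 and 0.268 CPM in Natural ovaries 1 to 4 and at 0.646, 0.551, 1.23, 1.41 and 0.719 CPM in IVF ovaries 1 to 5. Every IVF ovary was above every Natural ovary, which held for 2.44% of the 17628 tested genes. The counts were low, with 6 to 14 in Natural and 4 to 28 in IVF libraries, and the 1.41 CPM of IVF ovary 4 were 4 counts. The log2 fold change was 1.23 ± 0.41 (SE) and did not pass after adjustment over all genes (edgeR adjusted p = 0.234). It lay between 1.05 and 1.43 when each ovary was left out in turn.

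Rpph1 was at 0.249, 0.295, 0.137 and 0.167 CPM in Natural ovaries and at 0.415, 0.414, 1.85, 0.704 and 0.180 CPM in IVF ovaries at 12 weeks. The groups overlapped through IVF ovary 5. Rpph1 was below the filter on low counts, and an exact two-sided permutation test of its CPM gave a difference of 0.501 CPM with p = 0.0476 and an adjusted p of 0.333 over 7 such tests.

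Rn7sk was nearly the same in the 4 Natural ovaries, at 10.1, 10.1, 9.93 and 10.8 CPM, and was at 11.6, 7.82, 14.6, 11.3 and 17.5 CPM in IVF ovaries. The groups overlapped. Its log2 fold change was 0.30 ± 0.23 (edgeR adjusted p = 0.572).

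In this comparison 0.00567% of genes passed, 1 of 17628 (1 to 5 when 1 ovary was left out), and none of 11 RNase P and MRP proteins, 7 proteins of 7SK and P-TEFb, 18 subunits or 20 factors did. At an unadjusted p under 0.05, 2544 genes passed in edgeR, and DESeq2 called 186 genes higher and 474 lower after adjustment. Bc1 was at 177.5 to 421.3 CPM in Natural and 123.5 to 321.2 CPM in IVF ovaries, and Lars2 at 247.5 to 364.5 and 224.7 to 351.6 CPM, so neither set the groups apart as at E18.5. Genes of the oviduct, which lies against the ovary, summed over 6 genes to 3017 to 7239 CPM in Natural and 15.3 to 3011 CPM in IVF ovaries. For 2 of the 6, every IVF ovary was below every Natural ovary, which held for 572 of the 17628 tested genes. Of the 6, 2 were at 0 in at least 1 ovary. Cumulus genes summed to 15.6 to 25.5 CPM in Natural and 6.34 to 11.6 CPM in IVF ovaries, also without overlap, with 2 of 6 lower in every IVF ovary and 1 of 6 at 0 in at least 1 ovary. Their part in the Rmrp values was not tested.

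At 39 weeks, 1 Natural ovary again held the most of all 3 RNAs. Rmrp was at 0.616, 0.641, 1.33, 1.22 and 7.16 CPM in Natural ovaries 1 to 5 and at 1.07, 1.08, 0.361, 1.07 and 0.461 CPM in IVF ovaries 1 to 5. Natural ovary 5 was 5.40-fold above the next ovary. The labels of this sample give both 39 and 40 weeks.

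Rpph1 was at 0.308, 0.561, 0.774, 0.543 and 6.88 CPM in Natural ovaries and at 1.29, 0.619, 0.481, 1.07 and 0.633 CPM in IVF ovaries. Natural ovary 5 was 5.35-fold above the next. Rn7sk was at 5.54, 6.89, 12.5, 13.5 and 28.3 CPM in Natural ovaries and at 13.3, 12.1, 11.8, 13.0 and 6.59 CPM in IVF ovaries, and Natural ovary 5 was 2.10-fold above the next.

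The groups overlapped for each of the 3. The log2 fold change was -1.48 ± 0.72 (SE) for Rmrp, -1.20 ± 0.83 for Rpph1 and -0.25 ± 0.41 for Rn7sk, and none passed (edgeR adjusted p = 0.288, 0.440 and 0.768), in a comparison where 0.262% of genes, 45 in all, did. The 45 became 0 in edgeR without Natural ovary 5 (with 2497 genes at an unadjusted p under 0.05), and 40 genes higher and 83 lower without IVF ovary 1, and the number moved by over 1.5 times in each of the 10 fits that left out 1 ovary. Without Natural ovary 5 the values were -0.23 ± 0.45, 0.58 ± 0.42 and 0.24 ± 0.32. The sign of Rpph1 and Rn7sk at 39 weeks therefore rested on that ovary.

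Rny1, Rny3 and Vaultrc5 were also highest in that library, at low counts. Natural ovary 5 was at 0.779 CPM for Rny1, 0.779 CPM for Rny3 and 0.467 CPM for Vaultrc5, which were 30, 30 and 18 counts. The other 9 ovaries were at most at 0.161, 0.180 and 0.214 CPM, which were 3, 6 and 4 counts. Lars2 was at 517.9 CPM there and at 166.3 to 404.0 CPM elsewhere. Bc1 was at 706.5 CPM there, but Natural ovary 1 was higher, at 761.8 CPM. None of the 11 RNase P and MRP proteins or of the 7 proteins of 7SK and P-TEFb passed at 39 weeks.

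In 28 of the 29 ovary libraries Rn7sk was the highest of the 3 RNAs per length, and in the remaining one, E18.5 Natural ovary 3, it was Rmrp. Rmrp was above Rpph1 in 23 of 29. The median level per length in 12-week Natural ovaries was 30.5 CPM per kilobase for Rn7sk, 1.20 for Rmrp and 0.640 for Rpph1. The ranges of Rmrp and Rpph1 per length overlapped in 6 of the 6 ovary groups, and those of Rn7sk and Rmrp in 2 of 6, Natural at E18.5 and at 39 weeks.

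From 12 to 39 weeks, Rmrp and Rpph1 rose in Natural ovaries and did not pass in IVF ovaries. In 1 model of the 4 adult groups, over 19066 genes, the change with age in Natural ovaries was 2.79 ± 0.70 (log2, SE) for Rmrp and 3.25 ± 0.91 for Rpph1 (edgeR adjusted p = 0.0122 and 0.0202). Rn7sk was at 0.52 ± 0.38 (adjusted p = 0.348). Changes with age in Natural ovaries were common, with 20.4% of genes passing, 3896 in all, or 2274 (without 12-week Natural ovary 1) to 5200 (without 39-week IVF ovary 1) when 1 ovary was left out. Without 39-week Natural ovary 5, Rmrp was at 1.56 ± 0.46 and still passed (adjusted p = 0.037), and Rpph1 was at 1.48 ± 0.60 and did not (adjusted p = 0.105). Rpph1 also did not pass without 12-week Natural ovary 3 or 4 (adjusted p = 0.0586 and 0.0502), whereas Rmrp passed in each of the 19 fits that left out 1 ovary.

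In IVF ovaries the change with age was 0.06 ± 0.62 for Rmrp, 0.42 ± 0.79 for Rpph1 and -0.04 ± 0.35 for Rn7sk (adjusted p = 0.972, 0.820 and 0.970), where 6.34% of genes passed, 1209 in all, or 468 (without 39-week IVF ovary 4) to 2816 (without 39-week IVF ovary 1) when 1 ovary was left out. The difference between the 2 age changes was -2.73 ± 0.92 for Rmrp, -2.83 ± 1.18 for Rpph1 and -0.55 ± 0.52 for Rn7sk. It did not pass for any of them (adjusted p = 0.135, 0.195 and 0.600), in a test that 0.0157% of genes passed (3, or 0 to 57 when 1 ovary was left out), so a difference in age change between Natural and IVF ovaries was not shown. The ages are in separate tables, and any difference in handling between them cannot be told apart from age.

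At 39 weeks the 3 relations between members passed by Pearson's r and 2 of them by Spearman's rho, and each r was lower without Natural ovary 5. At 12 weeks 2 of the 3 relations did not pass and the other rested on 2 ovaries. Of 6 relations tested on log2 CPM, 4 passed after adjustment by Pearson's r and 2 by Spearman's rho. At 39 weeks (n = 10), r between Rmrp and Rn7sk was 0.83 (permutation p = 0.00796, adjusted 0.023) and rho was 0.82 (permutation p = 0.00548, adjusted 0.0164), and r was 0.93 without Natural ovary 5 and IVF ovary 3, the 2 farthest from the median of Rmrp. Between Rpph1 and Rn7sk r was 0.84 (permutation p = 0.00518, adjusted 0.023) and rho 0.83 (permutation p = 0.00532, adjusted 0.0164), and r was 0.60 without Natural ovary 5 and IVF ovary 1. Between Rmrp and Rpph1 r was 0.89 (permutation p = 0.0115, adjusted 0.023) and rho 0.61 (permutation p = 0.0636, adjusted 0.0998), and r fell to 0.51 without Natural ovary 5 and IVF ovary 3. Without Natural ovary 5 alone (n = 9), r was 0.63 for Rmrp with Rn7sk, 0.65 for Rpph1 with Rn7sk and 0.55 for Rmrp with Rpph1. After subtracting the group means, with Natural ovary 5 included, r was 0.93 for Rmrp with Rpph1, 0.89 for Rmrp with Rn7sk and 0.84 for Rpph1 with Rn7sk.

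At 12 weeks (n = 9), r between Rmrp and Rpph1 was 0.73 (exact permutation p = 0.0265, adjusted 0.0397) and rho 0.65 (exact p = 0.0666, adjusted 0.0998). Without IVF ovaries 3 and 4 it was 0.28, so the relation rested on those 2. With Rn7sk, r was 0.42 for Rmrp (exact permutation p = 0.260, adjusted 0.312; rho 0.48, exact p = 0.194, adjusted 0.233) and 0.19 for Rpph1 (exact permutation p = 0.576, adjusted 0.576; rho 0.25, exact p = 0.521, adjusted 0.521). Without the same 2 ovaries these were 0.44 and -0.32. After subtracting the group means, r over all 9 ovaries was 0.52 for Rmrp with Rpph1, 0.26 for Rmrp with Rn7sk and -0.030 for Rpph1 with Rn7sk.

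Over the 19 adult ovaries, after subtracting the mean of each age and group, the genes most like the members among 16722 were LOC108168534, Gm15564, Pgam2 (a muscle phosphoglycerate mutase), Lars2, Adam5, Phf7, Smim24 and Etohd2, with mean r from 0.74 to 0.70. Lars2 and Gm15564 stood in both lists of 8, at mean r of 0.71 and 0.73 here. The number of ovaries is small for a search of this size, and no test was made of the lists.

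Libraries of isolated cells were made by a modified SMART-seq protocol for small numbers of cells, so their levels are not compared with those of ovaries. The 3 RNAs were rare in PGCs and oocytes. In PGCs, Rmrp was at 0 in 8 of 9 libraries and at 0.458 CPM, which was 2 counts, in Natural library 4. Rpph1 was at 0.380, 0.995, 0 and 0.229 CPM in Natural libraries and at 0.264, 2.90, 2.77, 0 and 1.66 CPM in IVF libraries. Rn7sk was at 0, 0.747, 0.332 and 1.37 CPM in Natural and at 0.264, 0.362, 0.922, 0 and 0.710 CPM in IVF libraries. The groups overlapped for each, and exact two-sided permutation tests gave p = 0.889, 0.190 and 0.603 for Rmrp, Rpph1 and Rn7sk. Since a single library held counts of Rmrp, its p was fixed by the group sizes and decides nothing. Of the genes tested with edgeR in PGCs 0% passed (0 of 12763, with 349 at an unadjusted p under 0.05 and 0 after adjustment in DESeq2).

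In 12-week cumulus cells Rn7sk was present in all 10 libraries, at 9.81, 6.38, 13.0, 3.92 and 1.49 CPM in Natural and at 4.74, 15.1, 2.36, 12.6 and 7.56 CPM in IVF libraries. The groups overlapped fully, with a log2 fold change of 0.18 ± 0.49 (edgeR with the library set as a covariate, adjusted p = 0.983, 0.00973% of genes called). Rpph1 was at 0, 0, 2.61, 1.96 and 0 CPM in Natural and at 14.2, 1.95, 3.54, 0 and 0.315 CPM in IVF libraries (exact permutation p = 0.310). Rmrp had counts in 1 of 10 libraries, Natural library 3, where 4 counts gave 0.652 CPM (exact permutation p = 1). With counts in a single library, that p too was fixed by the group sizes and decides nothing. Each adjusted p of these exact tests was at least 0.667. The name of Natural library 5 carries the number of a set, read here as a donor set, whose 8 oocytes are labelled IVF. Without that library, the log2 fold change of Rn7sk was -0.047 (edgeR adjusted p = 0.996), turning its sign, and the difference of IVF from Natural was 2.86 CPM for Rpph1 and -0.163 CPM for Rmrp.

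In 12-week oocytes, no count of Rmrp was found in 76 libraries. Over the 210388867 counts of the Natural oocytes together, the 95% exact Poisson interval reached 0.0175 CPM. Over the 211702064 counts of the IVF oocytes it reached 0.0174 CPM, for counting error only. Rpph1 had 10 counts in 2 of 36 Natural and 8 counts in 3 of 40 IVF oocytes (exact permutation p over donor sets = 0.881). Rn7sk had 32 counts in 9 of 36 Natural and 80 counts in 15 of 40 IVF oocytes. Summed per set of donors, Rn7sk was at 0.103, 0.0480, 0.102, 0.266 and 0.218 CPM in the 5 Natural sets and at 0.261, 0.476, 1.46, 0.249 and 0.0434 CPM in the 5 IVF sets. The sets overlapped, and the log2 fold change of 1.48 ± 0.78 did not pass (edgeR adjusted p = 0.784, 0.0277% of genes called).

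In 39-week oocytes no animal is named, so that each group counts as 1 sample and no test was made. Rmrp had 15 counts, all in Natural oocyte 4, of 107931940 Natural counts, or 0.139 CPM (95% exact Poisson interval 0.0778 to 0.229). It had 0 of 179128096 IVF counts (same interval, 0 to 0.0206 CPM). Rn7sk had 42 counts in 4 of 9 Natural oocytes, or 0.389 CPM (0.280 to 0.526), and 14 counts in 3 of 10 IVF oocytes, or 0.0782 CPM (0.0427 to 0.131). Natural oocyte 9 alone held 36 of the 42. Rpph1 had 18 counts in 2 Natural oocytes, 16 of them in Natural oocyte 9, and 2 counts in 1 IVF oocyte. These intervals cover counting error only, and most Natural counts came from oocytes 4 and 9.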

How the data were processed

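Per the labels and the study's methods, ovary libraries were made with the KAPA Stranded mRNA-Seq kit and the PGC, oocyte and cumulus libraries by a modified SMART-seq protocol. The submitters' processing notes name Trimmomatic 0.32, STAR 2.3.0e, featureCounts 1.5.0, DESeq2 and the mm10 build. The deposited values are raw read counts per gene, 1 table per tissue and age, not normalized. Whether strand was used in counting is not given in the sources used here.

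CPM is the count per 1000000 counts of the same library. IVF was compared with Natural within each table with the edgeR 4.0.16 quasi-likelihood test in R 4.3.3 (TMM factors, filterByExpr, Benjamini-Hochberg adjustment over all tested genes, threshold 0.05). Members below the filter were compared by exact permutation of CPM, which for Rpph1 in 12-week ovaries replaced the planned edgeR test. Oocytes of 12 weeks were summed per donor set (5 against 5), a grouping read from the library names, and cumulus fits carried the library set. Correlations used log2 CPM with a prior count of 2 and, for 10 ovaries, 100000 resamples. DESeq2 1.42.0, RLE size factors, no filter, a replicate block and leaving out each replicate were alternatives. The fits were tested on simulated ovary data with the same dispersion for every gene and changes only in well-counted genes. Of the genes called there, 3.16% to 6.93% were false with edgeR and 9.76% to 12.6% with DESeq2. That simulation does not cover genes as low or as variable as the members. Same-numbered libraries of the groups did not deviate together in every pair of any table, so replicate numbers were not treated as pairs. The lowest correlation per table ran from -0.36 to -0.0062 and the highest from 0.010 in E18.5 ovaries to 0.54 in PGCs, so shared handling of some pairs is not excluded.

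The members and gene lists were chosen with earlier results of these data known. Genes named are the members, their neighbours, up to 5 called genes of a list with the largest changes and the 8 genes most like the members. Per the study's methods, sequenced ovaries were from individual animals of different litters. Another 4 records of 12-week cumulus cells carry library names of later records, and each such library was counted once.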

Additional observations from a re-analysis of the deposited data

Results flagged for a closer look

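Of 37 groups of 4 to 10 values of the members, 16 held a value far from the rest of its group by Dixon's ratio. The cutoff flags about 1 in 20 groups of normally distributed values, but many of these CPM rest on low counts or zeros. A group with a single value above 0 has a ratio of 1 whatever that value is. The same library can also enter through several members, so the 16 are not compared with that rate. In whole ovaries the flagged values were Rmrp at 174.5 CPM and Rpph1 at 89.2 CPM in E18.5 Natural ovary 3, Rmrp at 1.42 CPM in E18.5 IVF ovary 3, Rmrp at 7.16 CPM and Rpph1 at 6.88 CPM in 39-week Natural ovary 5, and Rn7sk at 6.59 CPM in 39-week IVF ovary 5, the lowest of its group.

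In cumulus IVF library 1, Rpph1 was at 14.2 CPM, with 3.54 CPM next and counts in 4 of the 5 libraries of that group. The other such groups of isolated cells hold many zeros. These were Rmrp at 0.458 CPM in PGC Natural library 4 and at 0.652 CPM in cumulus Natural library 3. In 12-week oocytes they were Rpph1 at 0.192 CPM in Natural donor set 2 and at 0.274 CPM in IVF donor set 3. In 39-week oocytes they were Rmrp at 2.52 CPM in Natural oocyte 4, Rpph1 at 0.871 CPM and Rn7sk at 1.96 CPM in Natural oocyte 9, and both Rpph1 and Rn7sk at 0.709 CPM in IVF oocyte 7.

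Rmrp was lower in every IVF ovary than in every Natural ovary at E18.5 and higher in every one at 12 weeks, where the lowest IVF ovary was at 0.551 CPM and the highest Natural ovary at 0.481 CPM. This difference between the ages was not tested, since the E18.5 values chose the gene.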

How the results depend on the processing

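Log2 fold changes of IVF over Natural, when each ovary was left out in turn, ran from -7.70 to -3.17 for Rmrp and from -6.63 to -2.46 for Rpph1 at E18.5, and from -1.46 to 0.58 for Rpph1 and from -0.44 to 0.24 for Rn7sk at 39 weeks. The age change of Rpph1 in Natural ovaries ran from 1.48 to 3.52 and passed in 16 of 19 fits, and in IVF ovaries Rmrp ran from -0.10 to 0.26 and Rn7sk from -0.18 to 0.14. Rn7sk ran from -0.28 to 0.86 in cumulus cells, and differences in CPM ran from -0.366 to 0.0924 for Rn7sk in PGCs and from -0.0369 to 0.0520 for Rpph1 in 12-week oocytes. Of 64 other values of the members, 63 kept their direction and side of the threshold, and Rpph1 in 12-week oocytes turned to -0.061 (log2) without the filter. DESeq2 gave no p for Rmrp and Rpph1 at E18.5. Genes called at E18.5 were 439 higher and 452 lower with edgeR, 933 and 991 with DESeq2, and 2 and 1 with a replicate block, and of the listed genes, cell type markers included, 21, 35 and 0. At 39 weeks they were 10 and 35, 593 and 647 with DESeq2, and 7 and 17 with the block. At 12 weeks they were 0 and 1, and 186 and 474 with DESeq2. With the replicate block, log2 fold changes were -5.90, -4.32 and -3.53 for Rmrp, Rpph1 and Rn7sk at E18.5 and -0.81, -0.17 and -0.0019 at 39 weeks, and Bc1 was at -1.61 and did not pass (adjusted p = 0.0793). Whether the replicate numbers mark pairs was not settled, and the cause of these shifts was not tested. Low counts limit Rmrp and Rpph1 in adult ovaries and all 3 RNAs in isolated cells.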
